A study of Mus musculus with 10 samples.

Results

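Zfp428, Klhl13, Noct and Nup62cl are 4 genes that were abundant in unedited mouse embryonic stem cells treated with retinoic acid. They were lower in cells labelled as the same line but lacking a CTCF binding element. They were chosen from the read counts themselves: more than 2000 counts in both unedited libraries, a fall of more than 3-fold in the edited cells, and no place in the usual lists of pluripotency genes. They are 4 of 52636 gene identifiers in the count tables and 4 of 16005 genes with enough counts to be tested. Because the contrast between the groups chose them, their levels and fold changes are given as a description, without a test.

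RNA sequencing was done on the E14 line, an embryonic stem cell line derived from the mouse blastocyst. Cells grown with LIF and inhibitors of MEK and GSK were replated without these factors, and retinoic acid, a vitamin A derivative that drives differentiation, was added for 24 h (the labels write the dose as 2 µm, read here as 2 µM). WT cells were set against CBE-KO cells, which lack the element, with 2 libraries each and the same treatment in both groups. The study asked how this element shapes contacts between nearby enhancers and the HoxA genes and the early response to retinoic acid. The labels do not say how many edited clones the CBE-KO libraries came from, so p-values measure the spread between these libraries alone.

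The 4 genes have separate roles. Klhl13 encodes a BTB-Kelch adaptor that brings substrates to the CUL3 ubiquitin ligase. Together with its relative KLHL9 it directs ubiquitination of the mitotic kinase Aurora B, and in mouse embryonic stem cells it is known, with the phosphatase gene Dusp9, as an X-linked gene behind differences between female and male cells. Noct encodes nocturnin, a member of the CCR4-like nuclease family that was long described as a deadenylase and acts on the phosphate of NADP and NADPH. Its expression is known to follow the circadian clock in many tissues. Nup62cl is named for its likeness to the C-terminal part of NUP62, a protein of the central channel of the nuclear pore. Zfp428 encodes a zinc finger protein of which little is known.

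The genes lie on 3 chromosomes, in the RefSeq annotation of GRCm38.p6 (the mm10 assembly of the submitters' processing notes). Zfp428 (ENSMUSG00000064264) lies at chr7:24504548-24515682 and Noct (ENSMUSG00000023087) at chr3:51224447-51251654. Klhl13 (ENSMUSG00000036782) lies at chrX:23219271-23365161 and Nup62cl (ENSMUSG00000072944) at chrX:140006802-140062707. No other RefSeq gene of the supplied table overlapped any of these spans. Whether reads were counted by strand is not given in the sources used here, so reads of unannotated antisense transcripts could not be separated.

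The 250 bases before an annotated start site are shown for each gene because they hold the short motifs by which the 4 genes differ. For Zfp428, the start site and the window before it lie inside the gene span, which begins at 24504548. Distances to neighbouring genes below were taken from the spans, not from these start sites. The windows are chr7:24506837-24507086 (plus strand), chrX:23365083-23365332 (minus strand, the most upstream of 5 Klhl13 windows), chr3:51224197-51224446 (plus strand) and chrX:140062569-140062818 (minus strand). Capitals mark ATGCAAAT (the octamer bound by POU factors such as Pou5f1), its variant ATGCTAAT, the CCAAT box and the GC box GGGCGG, on either strand.
Zfp428: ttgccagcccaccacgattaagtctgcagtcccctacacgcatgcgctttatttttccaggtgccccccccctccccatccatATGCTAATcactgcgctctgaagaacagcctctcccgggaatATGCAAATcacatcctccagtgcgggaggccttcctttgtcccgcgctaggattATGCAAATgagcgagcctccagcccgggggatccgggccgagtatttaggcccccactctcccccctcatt
Klhl13: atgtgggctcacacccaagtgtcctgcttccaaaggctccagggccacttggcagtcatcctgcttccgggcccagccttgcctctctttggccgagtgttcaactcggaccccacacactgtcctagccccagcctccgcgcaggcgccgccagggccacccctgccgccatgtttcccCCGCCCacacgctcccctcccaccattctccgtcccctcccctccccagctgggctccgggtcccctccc
Noct: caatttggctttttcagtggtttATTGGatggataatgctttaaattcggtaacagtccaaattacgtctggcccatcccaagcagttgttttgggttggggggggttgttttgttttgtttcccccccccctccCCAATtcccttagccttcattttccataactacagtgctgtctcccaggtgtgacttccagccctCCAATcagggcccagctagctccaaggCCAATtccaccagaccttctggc
Nup62cl: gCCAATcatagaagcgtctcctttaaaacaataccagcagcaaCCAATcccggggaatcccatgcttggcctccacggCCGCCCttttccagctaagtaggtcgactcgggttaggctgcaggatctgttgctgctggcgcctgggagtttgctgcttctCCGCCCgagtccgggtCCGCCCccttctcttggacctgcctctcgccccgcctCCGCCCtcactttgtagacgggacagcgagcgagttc

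The Zfp428 window held 2 octamers, at bases -125 to -118 and -71 to -64 from the start site, and the variant at -167 to -160. At least 1 octamer was found in 570 of 32851 RefSeq promoter windows of 300 bases (1.74%), 2 or more in 35 windows (0.107%), and the variant in 302 windows (0.919%). No octamer or variant was found in the windows of the other 3 genes. Noct carried 4 CCAAT boxes in its window, at -227, -115, -50 and -23 (first base), and no GC box. Nup62cl carried 2 CCAAT boxes and 4 GC boxes, and the most upstream Klhl13 window 1 GC box and 1 AGGTCA, the hexamer bound by nuclear receptors, the latter after the start site. CCAAT was present in 37.4% of all windows, GGGCGG in 35.7% and AGGTCA in 16.3%. The E-box CACGTG bound by clock factors, present in 7.15% of all windows, had no match in any window of the 4 genes. The same held for a core of the CTCF motif (8.61% of windows) and for the direct repeat of AGGTCA with a spacer of 5 bases that retinoic acid receptors bind (0.00913%). Motif matches and GC content were taken over windows of 300 bases, which add 50 bases after the start site to the 250 shown. GC content was 58.0% for Zfp428, 69.0% for the most upstream Klhl13 window, 52.0% for Noct and 59.7% for Nup62cl. The median over all windows was 52.7%. The motifs were chosen after the sequences had been seen.

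**Figure D1:**
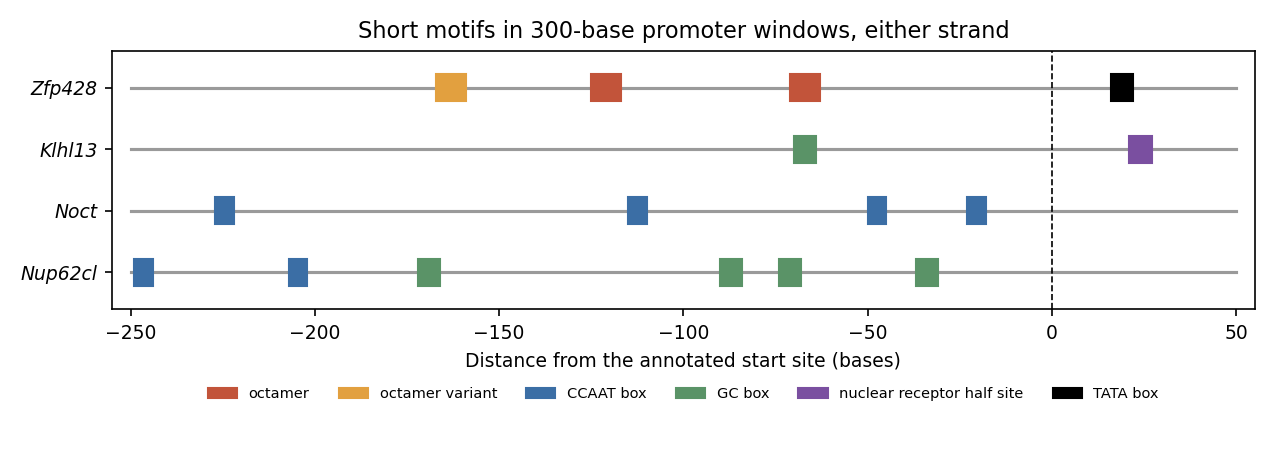
Short motifs in the promoter windows of Zfp428, Klhl13 (most upstream start site), Noct and Nup62cl. The x axis is the distance in bases from the annotated start site (dashed line), and each box is a match on either strand; octamers (red) and their variant (orange) lie in the Zfp428 window alone among the 4.

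The octamer was followed over the other genes that carry it. Of 175 tested genes with an octamer in a promoter window, Zfp428 left out, 37 were called lower in CBE-KO (21.1%) and 42 higher, by edgeR's quasi-likelihood test (adjusted p below 0.05); with library totals alone, 21 were lower and 58 higher. Over all tested genes, 43.1% were called in either direction and 21.5% were called lower. The median log2 fold change of the 175 genes was 0.02, against 0.01 over all tested genes. Among the 12 tested genes with 2 or more octamers in a window, 4 were lower (33.3%) and 3 higher (3 and 5 with library totals alone), and their median was 0.06. The lowest of them was Gadd45a, a stress-induced growth arrest gene, at -0.75 ± 0.06 (SE; edgeR adjusted p = 4.22e-08), named after its value was seen. Pou5f1, which encodes the POU factor of pluripotent cells, was counted 15841 and 13363 times in WT libraries against 13260 and 11859 times in edited ones, or -0.33 ± 0.05 on the log2 scale (SE; edgeR adjusted p = 4.71e-05).

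Zfp428 had the smallest spread between its edited libraries. It was counted 3373 and 3058 times in the WT libraries against 1033 and 932 times in the edited ones, or 231 and 222 CPM against 63.7 and 64.1 CPM (counts relative to library size, CPM, scaled with the TMM factors of edgeR). Both edited libraries lay far below both WT libraries, and the lowest WT value was 3.47 times the highest CBE-KO value. The means were 227 ± 6.03 and 63.9 ± 0.285 CPM (SD, n = 2 each), which is 3.55-fold lower (log2 fold change -1.83 ± 0.05, SE). The pair of CBE-KO libraries differed by 0.633% and the WT pair by 3.83%.

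Klhl13 showed the largest fall of the 4. It was counted 2642 and 2377 times in WT libraries against 727 and 582 times in edited ones, which is 181 and 173 CPM against 44.8 and 40.0 CPM. The groups were separated by a factor of 3.86 between the lowest WT and the highest CBE-KO value. The means were 177 ± 5.66 and 42.4 ± 3.39 CPM (SD, n = 2 each), which is 4.16-fold lower (log2 fold change -2.06 ± 0.06, SE). The CBE-KO libraries differed from each other by 12.0%, more than the WT libraries at 4.63%.

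Noct was counted 2412 and 2384 times in WT libraries against 750 and 648 times in edited ones. These were 165 and 173 CPM in WT and 46.2 and 44.5 CPM in CBE-KO, again without overlap. The means were 169 ± 5.83 and 45.4 ± 1.19 CPM (SD, n = 2 each), which is 3.73-fold lower (log2 fold change -1.90 ± 0.06, SE). Its replicates differed by 4.99% in WT and 3.77% in CBE-KO.

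Nup62cl was counted 2367 and 2143 times in WT libraries against 765 and 621 times in edited ones, the second WT value being the closest of these 4 genes to the minimum of 2000. In CPM, the WT libraries stood at 162 and 156 and the CBE-KO libraries at 47.1 and 42.7. The means were 159 ± 4.38 and 44.9 ± 3.15 CPM (SD, n = 2 each), which is 3.53-fold lower (log2 fold change -1.82 ± 0.06, SE). The CBE-KO pair differed by 10.4% and the WT pair by 3.98%.

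All 4 genes kept between 24.0% (Klhl13) and 28.3% (Nup62cl) of their WT level, a range bounded above by the choice of falls over 3-fold. A complete separation of the groups was common in these libraries, since the values of the groups did not overlap for 70.4% of all tested genes, and a fall of more than 3-fold was seen in 0.931% of tested genes. The choice of the 4 genes fixed both properties, and nothing is read from them. In bulk RNA, fewer cells expressing a gene and less RNA per cell cannot be told apart.

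**Figure D2:**
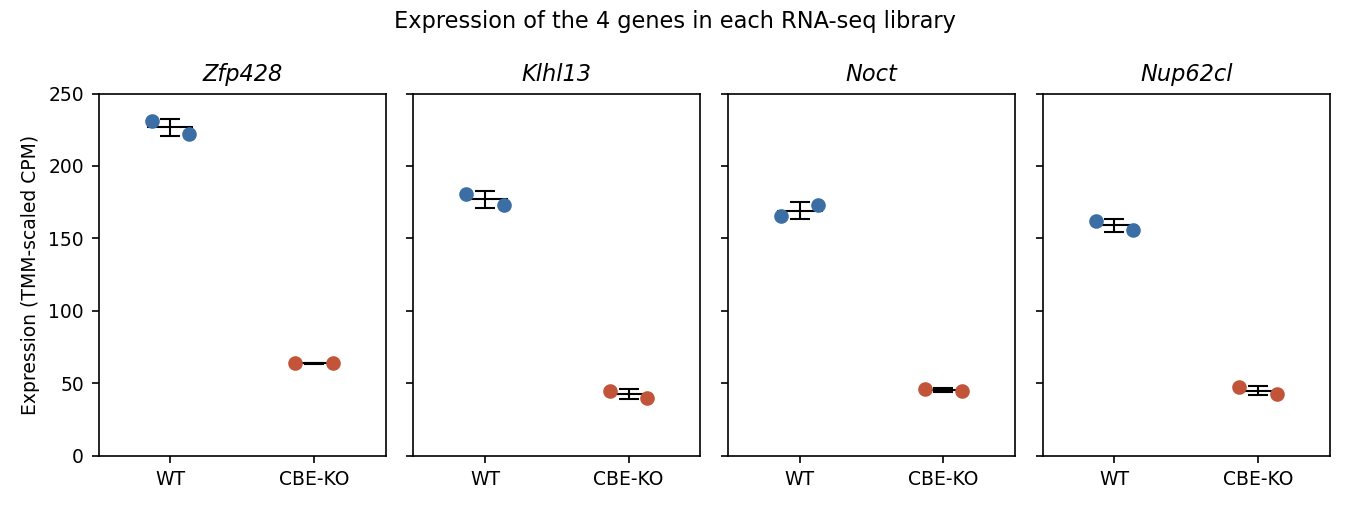
Expression of Zfp428, Klhl13, Noct and Nup62cl in TMM-scaled CPM (y axis) in WT (blue) and CBE-KO (red). Points are single libraries, and black bars the mean and SD of 2 libraries; WT values lie from 156 to 231 CPM and CBE-KO values from 40.0 to 64.1 CPM.

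Replicate spread did not enter the choice, except through the minimum count. Over the 1539 genes above 2000 counts in both WT libraries, the median absolute log2 ratio between replicates was 0.055 in WT and 0.039 in CBE-KO. In WT, the 4 genes sat near that middle, at 0.054 for Zfp428, 0.065 for Klhl13, 0.070 for Noct and 0.056 for Nup62cl. In CBE-KO, Zfp428 (0.0091) and Noct (0.053) were at percentiles 11.9 and 63.2 of these genes. Klhl13 (0.16) and Nup62cl (0.14) were at percentiles 98.2 and 96.5, both higher in the first CBE-KO library. Both had 582 to 765 counts in the edited libraries, fewer than most genes of this comparison. The SD of counting error on the log2 ratio was 0.080 for Klhl13 and 0.078 for Nup62cl. Noct, with 750 and 648 counts in the edited libraries, had a like SD of 0.077 but a gap of only 0.053. What lay behind the wider gaps of Klhl13 and Nup62cl was not tested. For Klhl13, the fold change was 12.6 times the larger gap between replicates on the log2 scale. The fold change chose the gene, so nothing is read from this ratio.

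The choice can be set against the other abundant genes. Of the 1539 genes, 6 fell by more than 3-fold: the 4 genes described here, Dnmt3l and Utf1. The 4 had the lowest log2 fold changes of all 1539. Dnmt3l, a cofactor of the de novo DNA methyltransferases, was counted 7709 and 7349 times in WT libraries against 2686 and 2310 times in edited ones (log2 fold change -1.71 ± 0.05, SE). Utf1, a chromatin factor of pluripotent cells, had 11443 and 10030 against 3662 and 3615 (-1.67 ± 0.05, SE), and with library totals alone it fell by less than 3-fold. Just outside the threshold were Sub1, a transcription coactivator gene, at -1.45, Manba, a lysosomal mannosidase gene, at -1.35, and Slc25a4, a mitochondrial ADP/ATP carrier gene, at -1.22. The 1539 genes leaned downwards, with a median log2 fold change of -0.17. Of them, 901 were called lower (58.5%) and 155 higher, or 631 and 276 with library totals alone. They were chosen by WT counts alone, which admits genes low in CBE-KO and leaves out genes high only in CBE-KO. The choice thus favours falls, and how much of the lean it made was not tested.

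**Figure D3:**
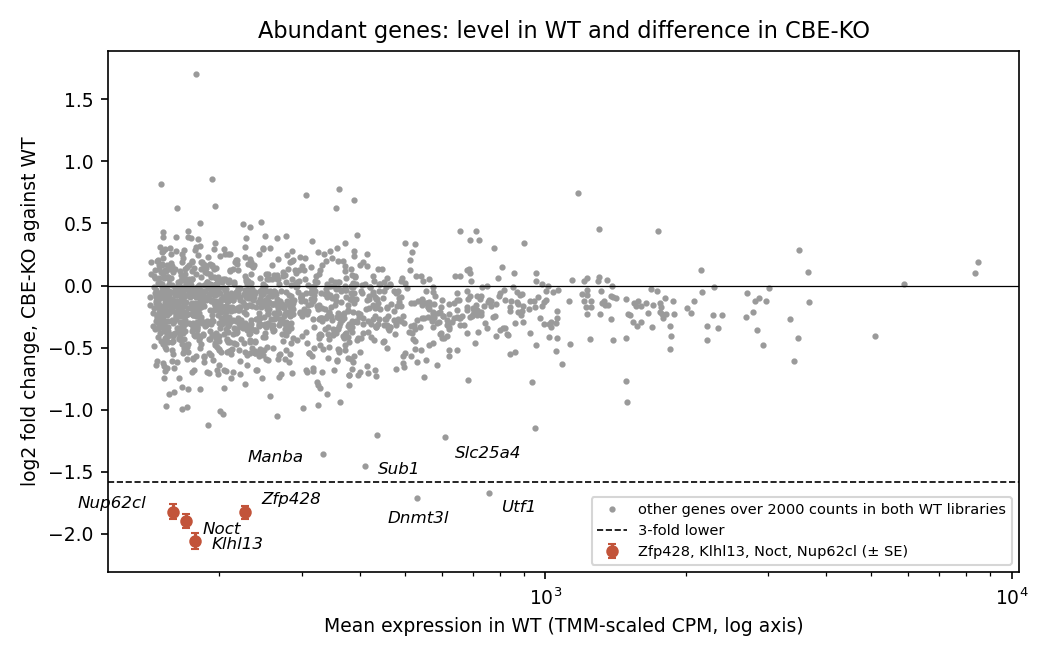
Mean WT expression (x axis, TMM-scaled CPM, log axis) and log2 fold change of CBE-KO against WT (y axis) for the 1539 genes with over 2000 counts in both WT libraries. Zfp428, Klhl13, Noct and Nup62cl (red, ± SE) lie lowest, and Dnmt3l and Utf1 are the other genes under the dashed line at 3-fold.

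Profiles over the 4 libraries were compared by the Euclidean distance between log2 CPM values, each gene centred on its own mean, over 5611 genes with a mean WT count of at least 500. Zfp428 and Nup62cl were nearest to each other (0.108), and Zfp428 and Noct (0.121) and Noct and Nup62cl (0.132) were almost as close. Klhl13 stood a little apart, at 0.205 from Noct, 0.238 from Nup62cl and 0.264 from Zfp428. The closest genes outside the 4 were Dnmt3l, at 0.134 from Zfp428 and 0.136 from Nup62cl, and Cited4, at 0.182 from Noct. Cited4, a transcriptional coactivator gene, was counted 833 and 785 times in WT libraries against 225 and 230 times in edited ones. With 4 libraries in 2 groups, genes with a similar fold change are close by construction, and the fold change chose the 4.

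The partners of Klhl13 in ubiquitination were compared next. Cul3, the ligase scaffold, was counted 1851 and 1644 times in WT libraries against 1937 and 1735 times in edited ones, or -0.05 ± 0.05 on the log2 scale (SE; edgeR adjusted p = 0.508), which became 0.059 with library totals alone. Of 10 genes of the CUL3 ligase and the Aurora B complex, 3 were called lower and 1 higher (40.0% called, near the 43.1% of all tested genes), with a median of -0.06, and with library totals alone 1 was lower and 2 higher (median 0.04). Ube2m, the NEDD8-conjugating enzyme, had -0.31 ± 0.05, Birc5 (survivin) -0.21 ± 0.05 and the RING subunit gene Rbx1 -0.20 ± 0.06 (SE). Aurkb, the gene for Aurora B, rose by 0.23 ± 0.06 (SE; edgeR adjusted p = 0.00230), a call lost without the first CBE-KO library. The calls of Birc5 and Rbx1 were lost with library totals alone, and that of Rbx1 also without the first WT library.

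Other Kelch-like genes went both ways. Of 35 further Klhl genes, 26 were tested, 7 were called higher and 4 lower (42.3% called, against 43.1% of all genes), with a median of 0.0039; with library totals alone, 9 were higher and 3 lower, and in DESeq2 6 and 2. Klhl9, the partner in Aurora B ubiquitination, was counted 600 and 652 times in WT libraries against 661 and 605 times in edited ones (-0.10 ± 0.08, SE; edgeR adjusted p = 0.324), a sign that turned to 0.00057 with library totals alone. Klhl21, which acts with CUL3 on the same kinase, fell from 499 and 454 to 343 and 339 counts, or -0.60 ± 0.09 on the log2 scale (SE; edgeR adjusted p = 3.66e-05). Klhl29 had the largest rise (1.30 ± 0.32), followed by Klhl23 (0.85 ± 0.21) and Klhl36 (0.68 ± 0.15, SE). Klhl34, on low counts of 49 and 53 against 12 and 35, had the lowest value after Klhl13 (-1.22 ± 0.37, SE). Its call was lost in DESeq2 (adjusted p = 0.0565) and without the first CBE-KO library, and that of Klhl29 without the second.

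Dusp9, the X-linked phosphatase gene named beside Klhl13 in work on sex differences of these cells, moved in the opposite direction. It rose from 17336 and 15975 counts to 31604 and 28829, or 0.74 ± 0.04 on the log2 scale (SE; edgeR adjusted p = 4.21e-10). Klhl13 and Nup62cl are both X-linked, and other X-linked genes were compared. Of 566 tested X-linked genes, both included, 183 were called higher and 95 lower (16.8%; 230 and 64 with library totals alone, 112 and 65 of 177 called in DESeq2), with a median log2 fold change of 0.14, against 0.01 for 14664 autosomal genes, of which 22.2% were lower. The WT libraries also held almost no Y-linked transcripts, with 6 and 5 counts of Ddx3y against 920 and 822 in CBE-KO, 3 and 5 of Eif2s3y against 888 and 779, and 2 and 0 of Uty against 293 and 267. The groups thus differed in Y-linked transcripts as well as in the removed element, and for Zfp428, Klhl13, Noct, Nup62cl and every other difference given here these cannot be told apart.

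The relatives of Noct showed small differences. Of the 5 other CCR4-like nuclease genes, 3 were called (60.0%, beside 43.1% of all tested genes). Cnot6l rose by 0.43 ± 0.11 (SE; edgeR adjusted p = 0.00412), from 242 and 222 to 380 and 301 counts. Cnot6 (-0.14 ± 0.06, SE; edgeR adjusted p = 0.0488) and Pde12 (-0.22 ± 0.08, SE; edgeR adjusted p = 0.0472) passed narrowly. Neither passed in DESeq2, without the expression filter, or without the second WT or second CBE-KO library, each of which left Cnot6l as the 1 gene called, nor with upper-quartile scaling or library totals. Angel1 (0.18 ± 0.08, SE; edgeR adjusted p = 0.0905) and Angel2 (0.08 ± 0.07, SE; edgeR adjusted p = 0.440) did not pass, though Angel1 did with upper-quartile scaling (0.21) and with library totals alone (0.28). Of 17 genes of deadenylase complexes and their regulators, 4 were higher and 3 lower (41.2% called, near the 43.1% of all tested genes), with a median of -0.00010, and with library totals alone 7 were higher and 2 lower (median 0.10). The largest were the antiproliferative genes Btg1 (0.84 ± 0.09) and Tob1 (0.63 ± 0.08), which rose, and Btg2 (-0.49 ± 0.13), which fell. Cnot11, a subunit of the CCR4-NOT complex, rose by 0.30 ± 0.05 (SE).

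Since Noct is a clock-controlled gene, circadian genes were listed as well. Of 22, 21 were tested, and 6 were called lower (28.6%) and 3 higher, beside 21.5% lower among all genes; the median was -0.09. With library totals alone the split was 4 lower and 6 higher (median 0.01). Per2, a repressor of the clock, was counted 21 and 16 times in WT libraries against 5 and 4 times in edited ones (-2.12 ± 0.52, SE; edgeR adjusted p = 0.0030), a call lost without the first WT library. Ciart, another clock repressor gene, fell from 336 and 346 to 203 and 168 counts (-0.999 ± 0.12, SE; edgeR adjusted p = 2.11e-06). The other lowered genes were Cry1 (-0.55), Per1 (-0.39), Nr1d1 (-0.58) and Dbp (-0.56), named after their values were seen; the calls of Nr1d1 and Dbp were lost in DESeq2, with library totals and without either CBE-KO library. The activators Clock and Arntl did not pass, at 0.10 ± 0.10 (edgeR adjusted p = 0.432) and 0.13 ± 0.09 (edgeR adjusted p = 0.245), and were likewise named afterwards; Clock turned to -0.02 without the second WT library, and Arntl passed with library totals alone (0.24). Npas2 (1.32) and Rora (0.80) were higher on low counts and lost their calls in DESeq2 and without the first CBE-KO library, and Npas2 also when any 1 of the 4 libraries was left out. The kinase gene Csnk1e (0.19), the third higher gene, was named after its value was seen and lost its call in DESeq2 and without the first WT or second CBE-KO library. In DESeq2, 4 clock genes were called, all lower, and without the first or the second CBE-KO library 5 were called. Of 8 genes for enzymes of the NADP pool, 7 were tested and 3 were higher (42.9% called, beside 43.1% of all tested genes), namely Me1 (malic enzyme, 0.71 ± 0.08), Idh1 (isocitrate dehydrogenase, 0.50 ± 0.05) and Idh2 (0.13 ± 0.05, SE). Idh2 lost its call in DESeq2 and without 3 of the 4 libraries in turn, the exception being the first WT library.

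Nucleoporin genes, the relatives and partners of Nup62cl, were mostly lower by small amounts. Of 31, 30 were tested, 21 were called lower (70.0%) and 1 higher, and the median log2 fold change was -0.20. Of the 30, 16 had over 2000 counts in both WT libraries, and 11 of those were lower (68.8%, median -0.16), beside 58.5% and -0.17 for all genes that abundant. Of the other 14, 10 were lower (71.4%, median -0.29), beside 21.5% of all tested genes. The 21.5% covers tested genes of every abundance. Lower calls were more common among the genes chosen by their WT counts (58.5%), a choice that favours falls. Genes with counts like those of the 14 were not compared, so a difference particular to nucleoporins was not tested there. Scaling mattered for the count over all 30, which was 12 lower and 3 higher with library totals alone. Nup62, the paralogue, was counted 3180 and 3067 times in WT libraries against 2885 and 2583 times in edited ones, or -0.31 ± 0.05 on the log2 scale (SE; edgeR adjusted p = 4.70e-05). Its channel partner Nup54 had -0.24 ± 0.06 (SE; edgeR adjusted p = 0.00265), a call lost with library totals alone. Nup58, the third channel protein, was listed under its older symbol Nupl1 at 0 in all 4 libraries and gives no value. The largest falls were those of Rae1, an mRNA export factor (-0.89 ± 0.05), Nup43 (-0.55 ± 0.06), the export factor Gle1 (-0.53 ± 0.06) and Nup85 (-0.45 ± 0.05, SE). Nup210, a membrane nucleoporin, was the 1 that rose (0.30 ± 0.08, SE), a call lost without the first WT library.

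For Zfp428, the comparison was with the other genes that carry a Zfp symbol and a number, most of them DNA-binding zinc finger proteins. Of 373 such genes, 341 were tested, 46 were called higher and 47 lower (27.3% called and 13.8% lower, beside 43.1% and 21.5% of all tested genes), and the median was 0.01; with library totals alone the split was 75 higher and 32 lower (median 0.11). In DESeq2 the number called was 52 (15.2%), beside 28.6% of all tested genes. None fell by more than 3-fold. The lowest was Zfp819, at 85 and 88 counts in WT libraries against 33 and 32 in edited ones (-1.53), named after its value was seen. The largest changes were rises from low WT counts. Zfp521 and Zfp503 passed the count filter through CBE-KO alone, so their direction was tied to entering the test. Zfp521, a regulator of neural differentiation that is also on the list of neural markers, was counted 4 and 4 times in WT libraries against 54 and 53 times in edited ones (3.59 ± 0.41, SE), and Zfp503 had 5 and 7 against 75 and 49 (3.22). Zfp608 (1.86) and the X-linked Zfp711 (1.73) followed, the former with its call lost in DESeq2 (adjusted p = 0.165) and without the second WT or the second CBE-KO library.

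**Figure D4:**
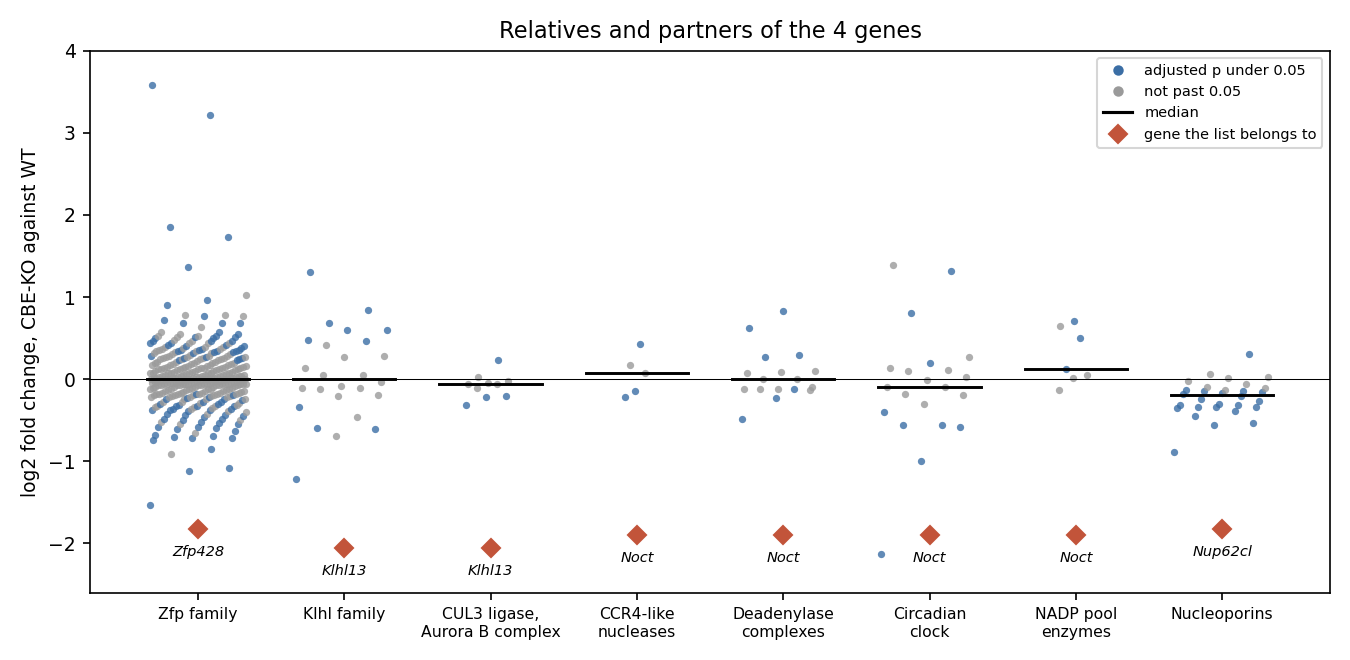
log2 fold changes of CBE-KO against WT (y axis) for genes of the lists tied to each of the 4 genes. Blue points passed an adjusted p of 0.05 and grey points did not, black lines are list medians (from -0.20 to 0.13), and red diamonds show Zfp428, Klhl13, Noct and Nup62cl.

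Genes lying next to the 4 in order were compared to see whether the difference extended along the chromosome. Their distances ran from 0.015 to 12747 kb, and the most distant do not bear on a local difference. Of the 40 nearest tested genes, 5 on each side of each gene, 7 were called lower and 9 higher (40.0% called, beside 43.1% of all genes), with a median of -0.05; with library totals alone 4 were lower and 9 higher (median 0.06). Without the first CBE-KO library 10 were called, as in DESeq2. Around Zfp428, 4 of 10 neighbours were lower and none higher, beside 21.5% lower among all tested genes. One of the 4, Xrcc1, was at only -0.17 ± 0.05 (SE), named after its value was seen. Cadm4, a cell adhesion gene ending 0.015 kb from Zfp428, was counted 418 and 390 times in WT libraries against 366 and 364 times in edited ones (-0.26 ± 0.09, SE; edgeR adjusted p = 0.0286), and lost its call with library totals, with upper-quartile scaling, in DESeq2 and without the first or second WT or the first CBE-KO library. Plaur, the urokinase receptor gene, 28.6 kb away, fell from 548 and 506 to 292 and 230 counts (-1.13 ± 0.09, SE; edgeR adjusted p = 3.98e-08). Irgq, on the other side, was at -0.47 ± 0.12 (SE; edgeR adjusted p = 0.00314).

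Around Noct, none of the 10 neighbours was called lower, beside 21.5% of all tested genes. Those called were higher: 1700018B24Rik, Mgarp and Pabpc4l. Mgarp, 137 kb away, was at 0.55 ± 0.11 (SE, edgeR adjusted p = 0.000736). Pabpc4l, 4776 kb away, was at 0.73 ± 0.23 (SE, edgeR adjusted p = 0.0154). Mgarp and Pabpc4l were named after their values were seen. Elf2, an ETS factor gene 1.07 kb from Noct, was counted 450 and 459 times in WT libraries against 530 and 464 times in edited ones (0.01 ± 0.08, SE; edgeR adjusted p = 0.941), a value whose sign varied between settings. Slc7a11, a cystine transporter gene 725 kb away, had 0.64 ± 0.32 (SE, edgeR adjusted p = 0.119). 1700018B24Rik, 2615 kb away, rose on counts of 6 and 5 against 25 and 26 (2.07 ± 0.46, SE). It passed the count filter through CBE-KO alone. Klhl13 lies in a stretch with few tested genes. Its called neighbours included Dock11, 12522 kb away (0.67, edgeR adjusted p = 2.21e-05), and Il13ra1, 12747 kb away (0.98, edgeR adjusted p = 0.00231). Both were higher and were named after their values were seen. Wdr44, 327 kb away, had 185 and 160 counts against 187 and 179 (-0.03 ± 0.14, SE; edgeR adjusted p = 0.883), with a sign that varied between settings. On the other side, 1998 kb away, 4930453H23Rik had 11 and 19 counts against 3 and 7 (-1.68 ± 0.58, SE; edgeR adjusted p = 0.0277), a call lost in DESeq2 and without the second WT or the first CBE-KO library. Near Nup62cl, Rbm41 at 8.21 kb had -0.38 ± 0.18 (SE; edgeR adjusted p = 0.0959), and passed without the second WT library. Prps1, a nucleotide synthesis gene on the other side, was at -0.16 ± 0.05 (SE; edgeR adjusted p = 0.0181), a call lost in DESeq2, with upper-quartile scaling or library totals, and without either CBE-KO library. Tbc1d8b (1.52 ± 0.30), Tsc22d3 (1.33 ± 0.22), Tex13b (1.95 ± 0.31) and Rnf128 (0.24 ± 0.08, SE) rose in the same stretch. Morc4, 135 kb from Nup62cl, was lower (-0.49 ± 0.13, SE, edgeR adjusted p = 0.00538). Morc4 and Rnf128 were named after their values were seen.

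**Figure D5:**
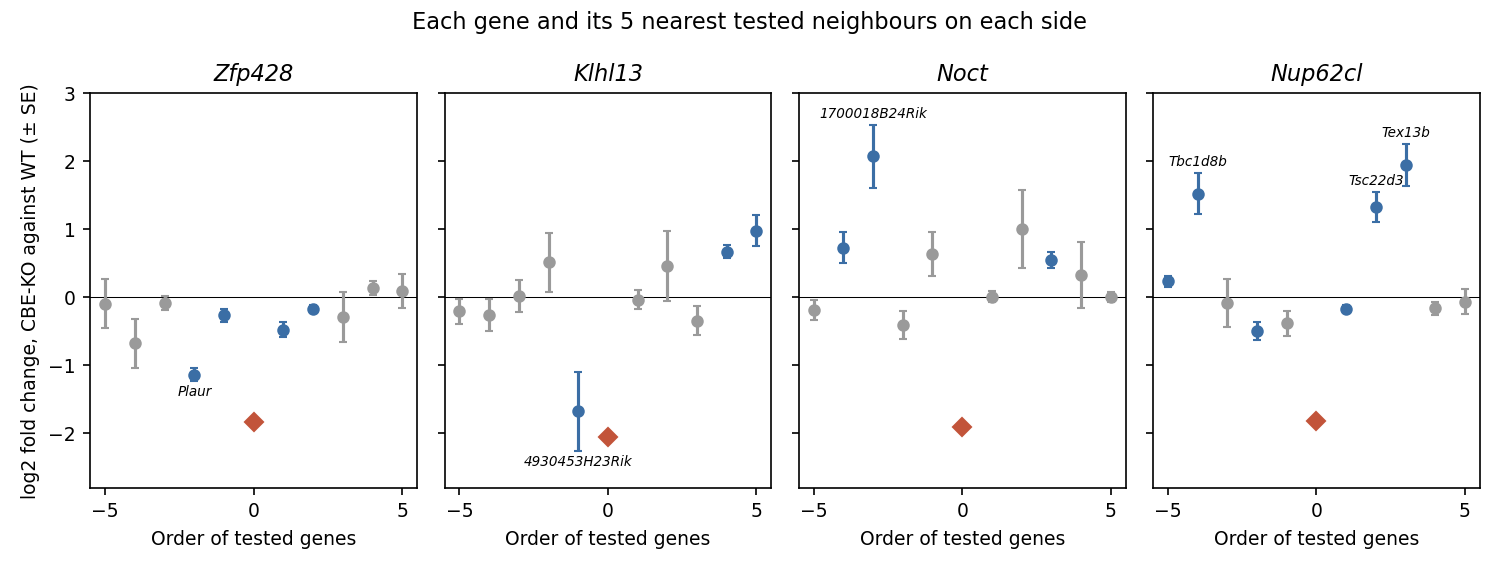
log2 fold change of CBE-KO against WT (y axis, ± SE) for Zfp428, Klhl13, Noct and Nup62cl (red diamonds) and the 5 nearest tested genes on each side (x axis, order along the chromosome). Blue points passed an adjusted p of 0.05 and grey points did not; no neighbour was as low as the gene it flanks, and rises reached 2.07.

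The 4 RNA-seq libraries held 14108038 to 15632960 counts, and 3 counts corresponded to 0.192 to 0.213 CPM. Embryonic stem cell markers were high in all of them, with a summed level of 4419 to 4591 CPM over 8 genes in WT and 3392 to 3434 CPM in CBE-KO. Over all tested genes, 21.5% were called lower and 21.6% higher. Over the abundant genes, whose choice by WT counts favours falls, 58.5% were lower. Of these 8 markers, 6 were called lower and Nanog higher, the latter lost without either CBE-KO library. Pluripotency genes as a wider list had 12 of 23 tested lower and 4 higher (median -0.24; 12 and 7 with library totals alone), and 10 of its 16 abundant members were lower (62.5%). The lowest were Utf1, Tdgf1 (-1.20), Lin28a (-1.05) and Nr0b1 (-1.04). Retinoic acid response genes had 15 of 17 higher and 1 lower (median 0.88), among them Foxa1 (1.74) and Cyp26a1 (1.70). Nr2f1, with 1 and 0 counts in WT libraries against 19 and 22 in edited ones, passed the count filter through CBE-KO alone. So did Nr2f2 (1.65), on 5 and 6 counts against 19 and 19. The direction of both was thus tied to entering the test. The call of Nr2f2 was lost in DESeq2 and without the first WT or either CBE-KO library. Markers of feeder fibroblasts stayed low, at 11.3 to 12.9 CPM summed over 7 genes in WT and 14.8 to 17.6 CPM in CBE-KO, with Postn, Lum and Dcn at 0 in all 4 libraries. Of the 2 feeder markers tested, Col1a1, a collagen gene, was higher (0.88; edgeR adjusted p = 0.0029), at 48 and 50 counts against 95 and 100. Summed markers of extraembryonic endoderm were 87.3 to 87.4 CPM against 98.4 to 100.5 CPM (3 of 7 higher), and of neural progenitors 35.3 to 35.9 CPM against 62.8 to 63.7 CPM (4 of 5 higher). The 6 trophoblast markers had 99.5 to 110.1 CPM in WT and 109.7 to 111.7 CPM in CBE-KO (5 tested, 2 higher and 1 lower). The 4 markers of two-cell-like cells had 4.07 to 4.92 CPM against 20.4 to 22.4 CPM (3 tested, all higher). The part of these marked cell types in the falls of Zfp428, Klhl13, Noct and Nup62cl was not tested. Ctcf, the gene for the protein that binds the removed element, was counted 2419 and 2172 times in WT libraries against 2505 and 2309 times in edited ones (-0.05 ± 0.05, SE; edgeR adjusted p = 0.472; 0.056 with library totals alone).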

How the data were processed

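RNA sequencing was deposited for 2 WT and 2 CBE-KO libraries. Data of the 6 Capture-C samples were left aside. Each deposited table holds raw counts of reads for Ensembl genes, as its whole numbers and unequal totals show, with no normalization. The submitters' processing notes name HISAT2 2.1.0, HTSeq 0.9.1, Bowtie2 2.3.1, DESeq2 1.18.1 and mm10, without saying which step each served. Annotation release, strand use and treatment of multi-mapping reads are not given in the sources used here, so genes with near-identical copies are uncertain.

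Symbols were matched for 52403 of 52636 identifiers, and positions and promoter windows were taken from RefSeq (GRCm38.p6) for all 4 genes. Counts were filtered with filterByExpr, scaled by TMM and tested with edgeR 4.0.16 (R 4.3.3; glmQLFit, glmQLFTest, two-sided, Benjamini-Hochberg over 16005 genes, threshold 0.05), without a covariate. The code of the test was checked on simulated counts with few changed genes, as many raised as lowered. That check does not cover data with as many differences as these. CPM are TMM-scaled. SE of a log2 fold change is its absolute value divided by the square root of the quasi-likelihood F statistic. log2 CPM for distances used a prior count of 2. Replicates differed by more than sampling noise (chi-square per degree of freedom 3.40 in WT and 2.70 in CBE-KO).

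The 4 genes and all lists were chosen with earlier results of these data known, and the motifs after the sequences were seen. Named genes were the 4, all abundant genes past the fold and the 3 just outside, the 4 largest called changes of each list, closest paralogues and partners, adjacent tested genes, called neighbours whose log2 fold change was 1 or more in size, and the 3 nearest profiles per gene. Alternatives were DESeq2 1.42.0, other scalings, filters and thresholds, a replicate block and leaving out each library.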

Additional observations from a re-analysis of the deposited data

How the results depend on the processing

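Zfp428, Klhl13, Noct and Nup62cl stayed lower by more than 3-fold under every setting tried. Library totals alone, which moved the median of all genes to 0.11, gave log2 fold changes of -1.72, -1.95, -1.79 and -1.72 in that order, and upper-quartile scaling gave -1.79 for Zfp428. Leaving out 1 library gave -1.86 to -1.80 for Zfp428, -2.14 to -1.98 for Klhl13, -1.93 to -1.87 for Noct and -1.90 to -1.75 for Nup62cl. With 1 library left in a group, that library is assumed to vary like the other group. Without the first CBE-KO library a seventh abundant gene, Gm10123, also passed 3-fold. DESeq2 called 4577 genes against 6895 in edgeR, and 1 CCR4-like nuclease, 4 clock, 52 Zfp, 177 X-linked and 10 neighbouring genes. Without the filter 1 CCR4-like nuclease was called. Leaving out 1 library gave 1 to 2 calls for these nucleases, 5 to 7 for clock genes and 10 to 15 for neighbours. With library totals 4770 genes were called higher and 2352 lower. With the replicate number as a block (replicate block), the log2 fold changes of the 4 genes were -1.83, -2.06, -1.90 and -1.82, and 7027 genes were called, of which 6807 were also called without it. No label ties a replicate number to a batch, and deviations of same-numbered libraries had a correlation of 0.035. Of 80 other named genes under 874 combinations with another setting, 782 kept sign and call, 76 lost the call, 4 gained it and 12 changed sign. The sign changes were all of genes that did not pass. With library totals Ctcf became 0.056, Cul3 0.059, Klhl9 0.00057 and Wdr44 0.074, and with upper quartiles Wdr44 became 0.0045. Elf2 was -0.0020 with median-of-ratios scaling and -0.0024 in DESeq2. Leaving out 1 library gave -0.050 to 0.062 for Elf2, -0.095 to 0.031 for Wdr44 and -0.025 to 0.24 for Clock. Depth limited genes of a few counts, of which several, such as Npas2, Zfp608, Nr2f2 and 4930453H23Rik, lost their calls in DESeq2.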
